A study of Mus musculus with 112 samples.

Results

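Control limbs of the mouse gastrocnemius, the large calf muscle, differed many-fold in their slow-fibre content as read from Myh7, the gene of the slow (type I) myosin heavy chain. The 46 control limbs considered here were ranked by Myh7 CPM (the gene's reads scaled to 1000000 counted reads of the library), and the members were chosen by these Myh7 values: the 12 highest limbs, called slow-rich, were compared with the 12 lowest, called slow-poor. These 24 libraries are part of a series of 112 libraries from both limbs of 56 Diversity Outbred mice, 28 females and 28 males, aged 16 weeks. Diversity Outbred mice descend from several inbred founder strains, so each animal is genetically unique and no genotype is repeated. In every animal 1 limb was held in a cast for 3 weeks, and the immobilized limb was the right and the control limb the left, so side and treatment cannot be told apart. Slow-rich and slow-poor limbs were thus both uncasted left limbs of animals that carried a cast on the other leg, and no uncasted animal was analysed here. The 10 animals numbered 2, 22, 26, 35, 41, 42, 44, 48, 52 and 55 were outside the ranking. In these same 10 animals, and in no other, at least 1 library held under 50% of the median level of Acta1, the skeletal muscle actin gene, on normalized library sizes.

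Skeletal muscle fibres are built from isoform families in which a slow and a fast version of each sarcomere protein are encoded by separate genes. Slow fibres contract slowly, resist fatigue and burn fatty acids in many mitochondria, whereas fast IIB fibres contract rapidly and rely on glycogen and glycolysis, with IIA and IIX fibres between them. The mouse gastrocnemius is a mostly fast muscle, and slow fibres lie mainly in its deep part and in the neighbouring soleus. In whole-muscle RNA, fewer cells of a type and less RNA per cell cannot be told apart, and the part of the muscle that was sampled is not given in the sources used here.

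Myh7 chose the groups, so its levels in the control limb are a description. Myh7 ran from 1541 to 4516 CPM with a median of 2061 in slow-rich limbs, and from 5.91 to 333 CPM with a median of 235 in slow-poor limbs. The 22 limbs between them held 369 to 1531 CPM, with a median of 754. The ranking had no gap at the upper limit: the last slow-rich limb held 1541 CPM and the next limb 1531 CPM. At the lower limit the first slow-poor limb held 333 CPM and the limb above it 369 CPM. Within the slow-poor limbs the range was wide, and male 12 and female 47 were lowest, with 5.91 and 23.2 CPM.

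**Figure D1:**
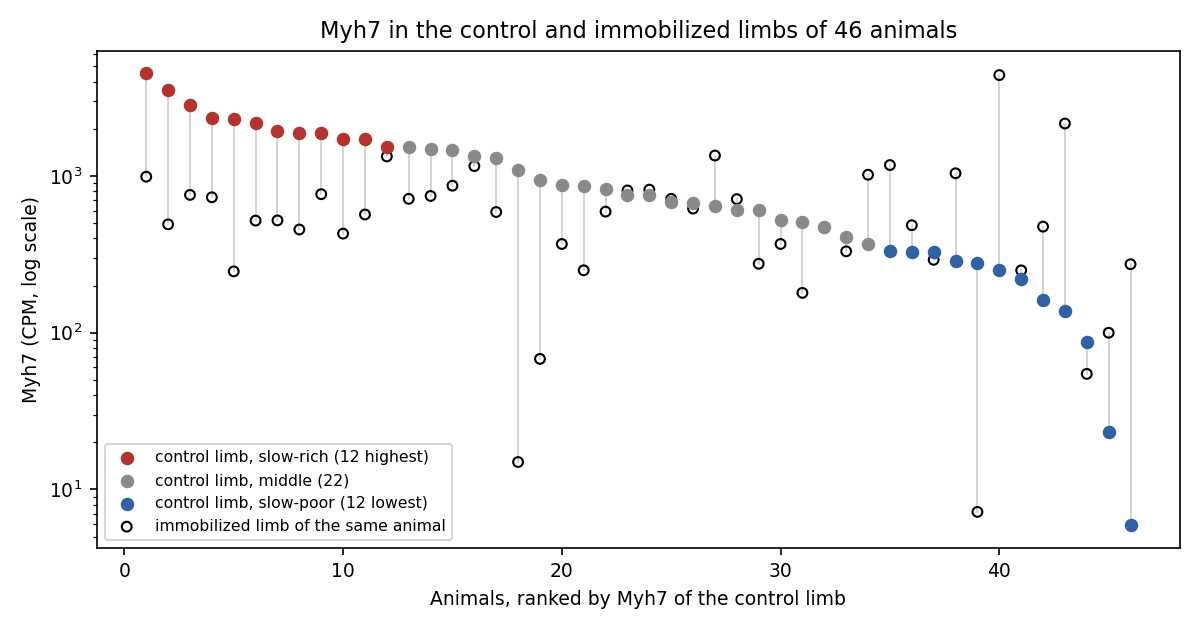
Myh7 in CPM (log scale) in the control limb (filled) and the immobilized limb (open) of 46 animals, ordered by the control limb. Slow-rich control limbs held 1541 to 4516 CPM and slow-poor ones 5.91 to 333 CPM, whereas the immobilized limbs of the same animals overlapped, from 246 to 1332 CPM in slow-rich and from 7.18 to 4402 CPM in slow-poor animals.

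The groups were similar in makeup. Males were 7 of 12 slow-rich and 8 of 12 slow-poor animals (Fisher's exact test, two-sided p = 1). Library totals ran from 3169641 to 5132732 counts in slow-rich and from 3188590 to 6070437 counts in slow-poor limbs. Both groups were muscle: Acta1 held 23110 to 36010 CPM (median 29480) in slow-rich limbs and 22110 to 43330 CPM (median 34310) in slow-poor limbs, a difference that missed the threshold (log2 fold change -0.30, adjusted p = 0.15). Ckm, the other muscle marker, was called lower in slow-rich limbs and is given with the fast cytosol genes. The sum of Acta1 and Ckm had a median of 46160 CPM in slow-rich and 55520 CPM in slow-poor limbs. Lymphocyte markers were near 0, with at most 2.66 CPM summed over 10 genes in slow-rich and 2.80 CPM in slow-poor limbs. The control limbs of males 15 (slow-rich) and 16 (slow-poor) did not match the other limb of the same animal in the ratio of Myh6 to Myh7 reads, given with the myosins; both were kept as labelled, and counts without them are given.

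Across all other genes, 896 of the 10668 tested differed between slow-rich and slow-poor control limbs, which is 8.4% (edgeR quasi-likelihood test with the female or male table as a covariate, Benjamini-Hochberg adjusted p of at most 0.05, n = 12 per group). Of these, 454 were higher in slow-rich limbs (4.26% of genes tested) and 442 lower (4.14%), around a median log2 fold change over all genes of -0.02. Large differences were mostly upward, with 131 genes at least 1 log2 unit higher and 40 at least 1 lower. Since the limbs were ranked on a gene of the same libraries, each p states that a gene moved with Myh7 in these limbs. Without animals 15 and 16, 689 genes were called. With the range of animal numbers as a further covariate, 661 were called, 355 higher and 306 lower. In 43 genes every slow-rich limb lay above every slow-poor limb, and in 0 genes every slow-rich limb lay below.

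All 10 slow sarcomere genes tested were higher in slow-rich limbs, with a median log2 fold change of 2.98. Tnnt1, the slow troponin T that anchors the troponin complex to tropomyosin, held 788 to 2193 CPM (median 1115) in slow-rich limbs and 10.0 to 238 CPM (median 162) in slow-poor limbs. The groups did not overlap, and the log2 fold change was 3.08 ± 0.36 (SE, adjusted p = 4.1e-06). Myl2, the regulatory light chain of slow myosin, held 788 to 1984 CPM (median 1158) in slow-rich and 12.7 to 230 CPM (median 159) in slow-poor limbs, again with no overlap and a log2 fold change of 3.03 ± 0.36 (adjusted p = 4.1e-06). Both are defining markers of slow fibres, and the name slow-rich therefore matched its markers in every limb when set against slow-poor limbs. The middle limbs reached 999.5 CPM of Tnnt1 and 1116 CPM of Myl2, above the lowest slow-rich limb, so these markers did not separate slow-rich from middle limbs.

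The other slow filament genes moved by nearly the same factor. Tnni1, the slow inhibitory troponin, differed by 3.10 ± 0.34 on the log2 scale, with 408 to 1005 CPM in slow-rich and 6.82 to 124 CPM in slow-poor limbs. Tnnc1, the calcium-binding troponin of slow and cardiac muscle, differed by 2.99 ± 0.35, Tpm3, the slow tropomyosin, by 2.95 ± 0.34, and Myl3, the essential light chain, by 2.97 ± 0.39. None of these 4 genes overlapped between the groups. Smaller differences were found for Myoz2, a Z-disc calsarcin of slow fibres (2.23 ± 0.32), for Myl6b (2.05 ± 0.43), and for Mybpc1, slow myosin-binding protein C (1.19 ± 0.18), which held 1729 to 3252 CPM in slow-rich limbs and 316 to 2001 CPM in slow-poor limbs, with overlap.

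Because these genes moved together across limbs, the 250 bases before their start sites are shown for 3 of them, Myh7, Tnnc1 and Tnni1, with the fast myosin gene Myh4 for comparison. The sequences are RefSeq's (GRCm38.p6), in the direction of transcription, from chr14:54994627-54994876 on the minus strand for Myh7, chr14:31208062-31208311 on the plus strand for Tnnc1, chr1:135799171-135799420 on the plus strand for Tnni1 and chr11:67237562-67237811 on the plus strand for Myh4. Capitals mark CATTCC (on either strand, the MCAT motif) and CAGCTG (an E-box motif).
Myh7 upstream: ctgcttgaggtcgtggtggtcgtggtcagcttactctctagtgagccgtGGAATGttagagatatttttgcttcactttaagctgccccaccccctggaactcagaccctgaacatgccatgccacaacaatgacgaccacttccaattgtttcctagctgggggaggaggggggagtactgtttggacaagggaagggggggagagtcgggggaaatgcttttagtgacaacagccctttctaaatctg
Tnnc1 upstream: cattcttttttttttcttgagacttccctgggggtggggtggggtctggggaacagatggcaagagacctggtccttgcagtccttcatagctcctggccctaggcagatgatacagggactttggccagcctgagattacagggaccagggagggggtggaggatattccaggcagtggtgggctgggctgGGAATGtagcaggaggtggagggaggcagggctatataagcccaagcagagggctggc
Tnni1 upstream: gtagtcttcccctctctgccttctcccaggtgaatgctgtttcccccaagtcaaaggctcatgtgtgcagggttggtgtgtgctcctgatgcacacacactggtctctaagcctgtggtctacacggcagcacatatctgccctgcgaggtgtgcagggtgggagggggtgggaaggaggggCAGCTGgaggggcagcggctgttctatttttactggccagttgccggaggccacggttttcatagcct
Myh4 upstream: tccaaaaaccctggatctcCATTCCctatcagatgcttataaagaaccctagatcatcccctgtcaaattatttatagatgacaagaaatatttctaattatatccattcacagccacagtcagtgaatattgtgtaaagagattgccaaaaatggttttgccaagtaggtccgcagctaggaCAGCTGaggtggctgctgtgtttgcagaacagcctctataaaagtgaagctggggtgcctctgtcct
The match nearest the start site lay 201 bases before it in Myh7, 58 bases in Tnnc1, 68 bases in Tnni1 and 67 bases in Myh4.
The letters of CATTCC, searched on both strands, were found upstream of 3 of the 11 slow genes (Myh7 and the 10 slow sarcomere genes, all matched to RefSeq) and of 5 of the 7 fast sarcomere genes of 12 that matched, and of 14.4% of all 27018 genes with a window. Of the 15 windows of slow genes, 3 held it, against 12.6% of all 32841 windows; Myh7 has 2 windows, and the other held no match. CAGCTG was found for 5 of the 11 slow genes and 3 of the 7 fast genes, and for 14.7% of all genes. The MEF2-type motif was found for 1 slow gene, Myoz2, and 0 fast genes, and for 3.7% of all genes. The matches marked in the 4 sequences do not overlap one another, and a match is a description of these letters only.

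Slow calcium handling and cytosol genes followed, with 9 of 9 higher in slow-rich limbs and a median log2 fold change of 1.76. With the range of animal numbers as a further covariate, 7 of 9 were called. Atp2a2, the calcium pump of the slow and cardiac sarcoplasmic reticulum, held 1126 to 2080 CPM (median 1614) in slow-rich and 49.2 to 465 CPM (median 204) in slow-poor limbs, with no overlap and a log2 fold change of 2.83 ± 0.27 (adjusted p = 3.8e-07). Casq2, the slow and cardiac calsequestrin, differed by 2.08 ± 0.33, but 1 slow-poor limb reached 87.6 CPM, inside the slow-rich range of 58.4 to 111 CPM. The pump inhibitors Pln (1.76 ± 0.52) and Sln (1.83 ± 0.49) were called on low levels, with medians of 3.61 and 18.2 CPM in slow-rich limbs and 2.37 and 3.53 CPM in slow-poor limbs, and Pln lost its call without any 1 of 8 animals. Mb, myoglobin, the oxygen store of red fibres, held 3344 to 6920 CPM (median 4593) in slow-rich and 203 to 3673 CPM (median 1495) in slow-poor limbs, higher with an adjusted p of 0.0011 despite overlap. Fabp3, the muscle fatty acid carrier, differed by 1.75 ± 0.30 and Car3, a cytosolic carbonic anhydrase of slow fibres and also of adipocytes, by 0.67 ± 0.18.

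Of 6 myosin heavy chain genes tested besides Myh7, 3 were higher in slow-rich limbs and 1 lower, with a median of 1.38. Myh2, the IIA myosin, held 2785 to 6866 CPM (median 4197) in slow-rich limbs and 561 to 1891 CPM (median 1157) in slow-poor limbs, so that the groups did not overlap (1.87 ± 0.20, adjusted p = 1.4e-06). Myh1, the IIX myosin, averaged higher in slow-rich limbs but missed the threshold (0.89 ± 0.29, adjusted p = 0.053), with 1221 to 6442 CPM in slow-rich and 369 to 3488 CPM in slow-poor limbs. Myh4, the IIB myosin, held 14600 to 34340 CPM (median 25280) in slow-rich and 19250 to 59580 CPM (median 41470) in slow-poor limbs and differed by -0.73 ± 0.16 (adjusted p = 0.0053), with overlap. Myh3, the embryonic myosin, was higher at low levels (1.92 ± 0.35, median 16.5 CPM in slow-rich and 4.33 CPM in slow-poor limbs), and Myh8, the perinatal myosin, did not pass the test (-1.24 ± 0.60, adjusted p = 0.21). Myh1, Myh2 and Myh4 are near-identical neighbours, as are Myh6 and Myh7, and how shared reads were counted is not given in the sources used here. The split between them is uncertain.

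**Figure D2:**
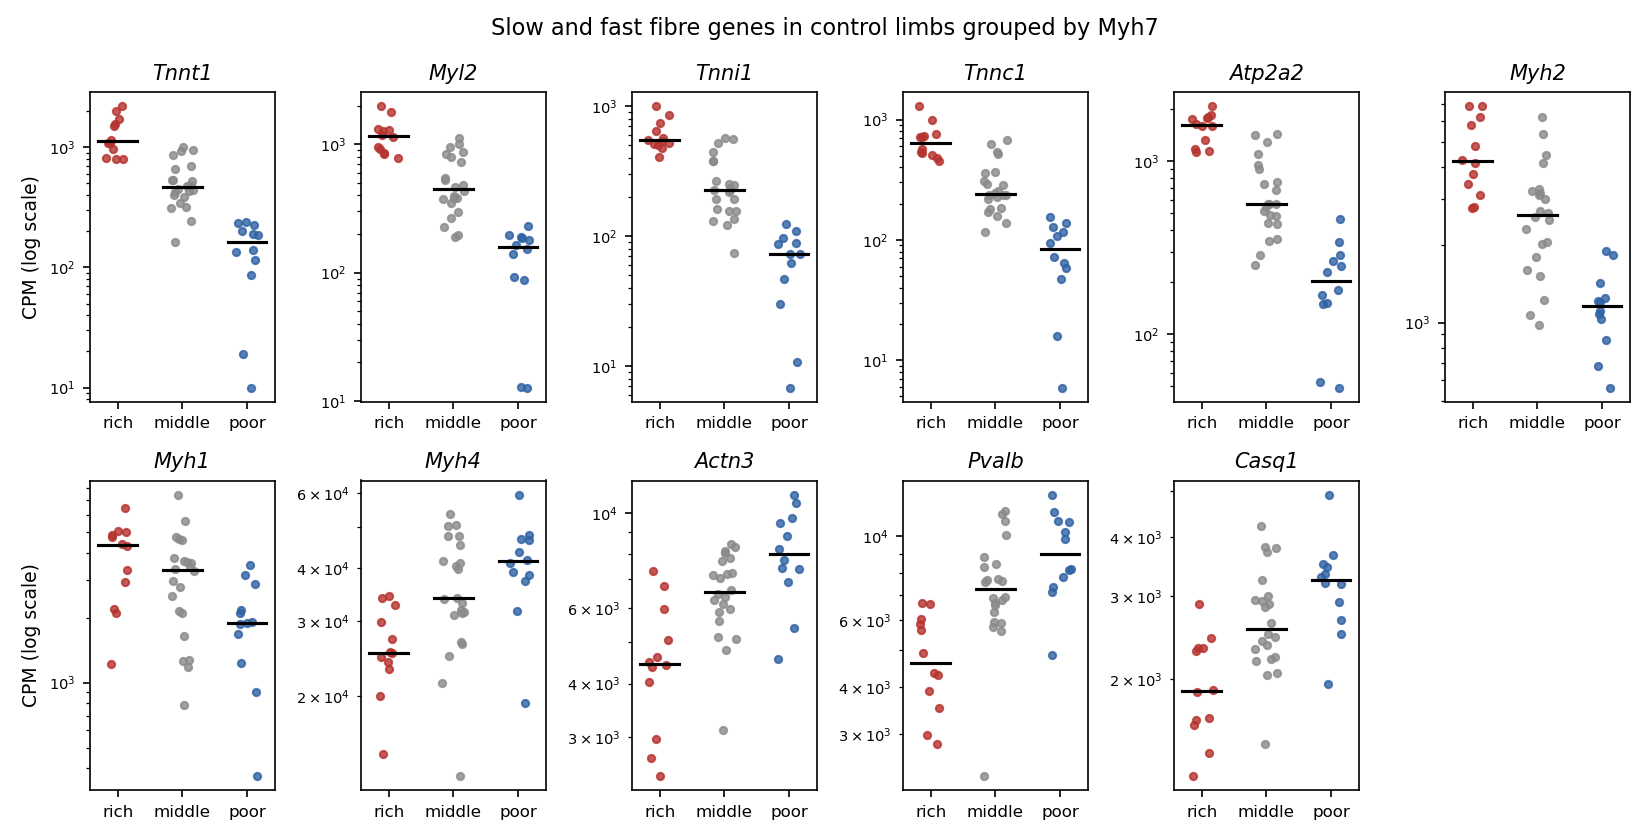
Levels in CPM (log scale) of 6 genes higher in slow-rich limbs, of Myh1 and of 4 genes lower in slow-rich limbs, in 12 slow-rich, 22 middle and 12 slow-poor control limbs; each point is 1 limb and the bar is the median. Tnnt1, Myl2, Tnni1, Tnnc1, Atp2a2 and Myh2 did not overlap between slow-rich and slow-poor limbs, whereas Myh1, Myh4, Actn3, Pvalb and Casq1 did.

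Myh7b and Myh6 are the myosin heavy chains closest to Myh7. Myh7b, which yields little protein and hosts a microRNA, held 11.5 to 39.0 CPM in slow-rich and 0.226 to 4.07 CPM in slow-poor limbs, a log2 fold change of 3.19 ± 0.29 (adjusted p = 3.8e-07). Myh7 hosts miR-208b and Myh7b hosts miR-499, which are known in mice to act on shared repressors of the slow programme. Their mature sequences (RefSeq, GRCm38.p6, chr14:54975710-54975731 on the minus strand and chr2:155622893-155622913 on the plus strand) are shown because their seeds, bases 2 to 8 in capitals, differ in the last letter alone.
mmu-miR-208b-3p: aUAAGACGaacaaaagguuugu
mmu-miR-499-5p: uUAAGACUugcagugauguuu
The levels of the 2 microRNAs were not analysed here.

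Myh6, the alpha cardiac myosin beside Myh7 on chromosome 14, was 3.27 ± 0.41 log2 units higher in slow-rich limbs (168 to 454 CPM, against 1.14 to 64.6 CPM in slow-poor limbs; adjusted p = 7.6e-06). The ratio of Myh6 to Myh7 reads differed between animals more than between the limbs of most animals. In the 51 of all 56 animals with at least 100 Myh7 reads in both limbs, the immobilized and the control limb fell in the same class in 49. In 39 animals there were 14.2 to 22.3 Myh6 reads per 100 Myh7 reads in the immobilized and 12.5 to 23.8 in the control limb. In 7 animals, among them the slow-rich males 33 and 39 and the slow-poor female 45, there were 6.37 to 7.64 in the immobilized and 4.53 to 7.20 in the control limb. In 3 animals there were 0.219 to 1.03 in the immobilized and 0.149 to 0.312 in the control limb. The exceptions were males 15 and 16: male 15 had 14.8 in the immobilized and 7.19 in the control limb, and male 16 had 7.64 in the immobilized and 16.9 in the control limb. Each control limb was thus in the class of the other male's immobilized limb, and which immobilized limb belongs to the slow-rich and which to the slow-poor control limb is uncertain for these 2 animals. The class limits of 2 and 10 were set after the values were seen, and differences in how reads of the 2 near-identical genes were assigned in animals of differing genotype were not tested.

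**Figure D3:**
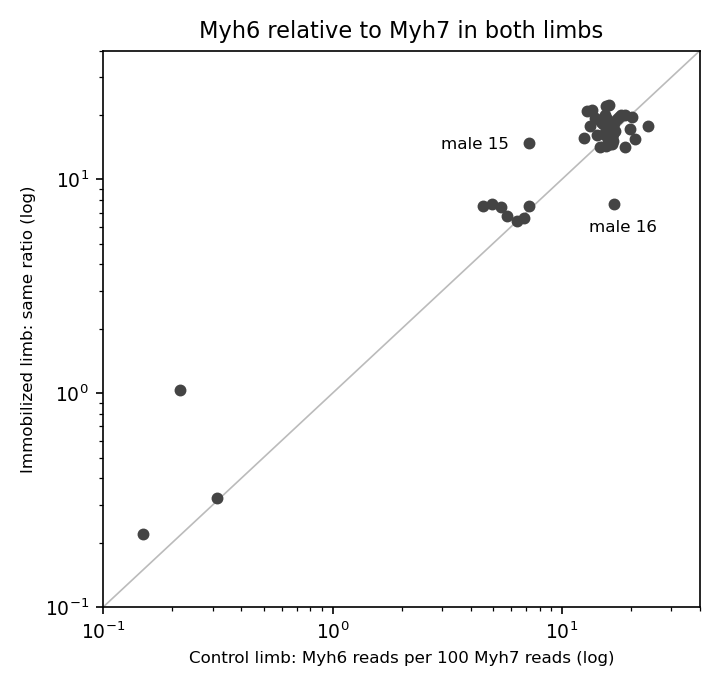
Myh6 reads per 100 Myh7 reads in the immobilized limb (vertical, log scale) against the control limb (horizontal, log scale) of 51 animals; the line marks equal values. The animals formed classes under 2, from 2 to 10 and over 10, and 49 of 51 kept their class between limbs, the exceptions being males 15 and 16.

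Fast sarcomere genes were lower in slow-rich limbs in 11 of 12 cases, with a median log2 fold change of -0.66, and the remaining member was Myh1. The differences were far smaller than those of the slow genes, and the groups overlapped in each of the 11. Actn3, the fast Z-disc actinin, held 2438 to 7307 CPM (median 4455) in slow-rich and 4555 to 11020 CPM (median 8009) in slow-poor limbs (-0.92 ± 0.18, adjusted p = 0.0017). The fast troponins Tnnt3 (-0.55 ± 0.12), Tnni2 (-0.47 ± 0.12) and Tnnc2 (-0.54 ± 0.13) and the light chains Mylpf (-0.69 ± 0.15) and Myl1 (-0.63 ± 0.13) fell by similar amounts. Tpm1, alpha tropomyosin (-0.77 ± 0.14), Myoz1 (-0.69 ± 0.13), Mybpc2 (-0.72 ± 0.15) and Mylk2, the myosin light chain kinase of skeletal muscle (-0.50 ± 0.14), completed the group, and Mylk2 lost its call without any 1 of 8 animals.

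The 8 fast calcium and cytosol genes were all lower in slow-rich limbs, with a median of -0.59. Pvalb, the calcium buffer parvalbumin of fast fibres, held 2824 to 6683 CPM (median 4637) in slow-rich and 4850 to 12890 CPM (median 9000) in slow-poor limbs (-1.03 ± 0.18, adjusted p = 0.00048). Casq1, the fast calsequestrin, differed by -0.81 ± 0.14, the fast calcium pump Atp2a1 by -0.54 ± 0.12, the AMP deaminase Ampd1 by -0.64 ± 0.14 and muscle creatine kinase Ckm by -0.54 ± 0.13. Gpd1, cytosolic glycerol phosphate dehydrogenase, held 216 to 540 CPM in slow-rich and 521 to 3164 CPM in slow-poor limbs (-1.13 ± 0.22, adjusted p = 0.0014).

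Regulators of fibre type divided by family. Of 14 genes linked to the slow or oxidative programme, 5 were higher in slow-rich limbs and 0 lower. All 3 oestrogen-related receptors, nuclear receptors that drive mitochondrial genes, were among them: Esrrb (1.80 ± 0.27, adjusted p = 7.8e-05) held 11.9 to 24.3 CPM in slow-rich and 0.314 to 9.42 CPM in slow-poor limbs with no overlap, Esrrg differed by 1.62 ± 0.29 and Esrra by 0.39 ± 0.11. Esrra lost its call without animal 20, 45 or 47. Prox1, a homeobox factor that represses fast genes in slow fibres, differed by 1.43 ± 0.22 (2.52 to 12.1 CPM in slow-rich and 1.25 to 5.64 CPM in slow-poor limbs), and the TEAD cofactor Vgll2 by 1.31 ± 0.21. The coactivator Ppargc1a had a value of 0.53 ± 0.25 (adjusted p = 0.21), and Nfatc1 (-0.07 ± 0.12, adjusted p = 0.79), Mef2c (0.02 ± 0.12, adjusted p = 0.95) and Mef2d (0.09 ± 0.07, adjusted p = 0.50), whose proteins transmit nerve activity largely by changes in location or phosphorylation, did not pass the test at the RNA level.

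Of 10 genes linked to the fast programme, 5 were lower in slow-rich limbs and 1 was higher. Maf and Mafa, transcription factors of IIB fibres in mice, differed by -0.87 ± 0.12 (adjusted p = 3.8e-05) and -1.02 ± 0.19 (adjusted p = 0.00089), with 103 to 214 CPM of Maf in slow-rich and 188 to 310 CPM in slow-poor limbs. Sox6, a repressor of slow genes, differed by -0.49 ± 0.10, Myod1, the myogenic factor higher in fast fibres, by -1.07 ± 0.29, and Smarcd3, a chromatin remodelling subunit, by -0.45 ± 0.12. Six4 was the gene that was higher (0.50 ± 0.13, adjusted p = 0.018), while Eya1 (-0.16 ± 0.13, adjusted p = 0.49) and Tbx15 (-0.16 ± 0.11, adjusted p = 0.41) did not pass the test. With the range of animal numbers as a further covariate, Six4 and Myod1 lost their calls.

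Metabolic genes shifted unevenly. Fatty acid uptake and oxidation genes were higher in slow-rich limbs in 11 of 26 cases and lower in 0, with a median of 0.64; with the range of animal numbers (1 to 20, 21 to 40 or 41 to 59) as a further covariate, 7 of 26 were higher. Lpl, the lipoprotein lipase that frees fatty acids at the capillary wall, held 786 to 1732 CPM in slow-rich and 188 to 1200 CPM in slow-poor limbs (1.33 ± 0.26, adjusted p = 0.0015). Cpt1b, which admits fatty acids to mitochondria, differed by 0.53 ± 0.13, the isomerase Eci1 by 0.66 ± 0.15 and the electron carrier Etfa by 0.65 ± 0.16. Fat cells also express Lpl, and the adipocyte list was mixed. Of its 9 members tested, 2 were positive, Car3 was called higher, 0 were called lower and the median was -1.60; the list sum, most of it Car3, had a median of 3705 CPM in slow-rich and 2219 CPM in slow-poor limbs. The sum of 6 defining markers was 9.78 to 300.2 CPM (median 87.3) in slow-rich and 16.1 to 1628 CPM (median 106) in slow-poor limbs, each of the 6 was lower with an unadjusted p of at most 0.05 and 0 passed adjustment. Their part in the result was not tested.

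In the tricarboxylic acid cycle, 4 of 19 genes were higher and 0 lower, with a median of 0.24. Idh2, the NADP-dependent mitochondrial isocitrate dehydrogenase, had the largest value of the list and held 449 to 864 CPM in slow-rich and 54.6 to 268 CPM in slow-poor limbs, with no overlap (1.98 ± 0.21, adjusted p = 7.6e-07). Mdh1, cytosolic malate dehydrogenase (0.86 ± 0.16), Sdhb (0.52 ± 0.12) and Suclg2 (0.50 ± 0.12) were the others. Of 50 nuclear genes of the respiratory chain, 49 had a positive log2 fold change and 5 were called (Ndufb3, Sdhb, Ndufv1, Atp5h and Sdhc, at 0.31 to 0.54), with a median of 0.24. The 13 protein genes of the mitochondrial genome were all positive with a median of 0.18 and 0 were called; mitochondrial transcripts made up 12.9% to 28.3% (median 19.0%) of slow-rich and 10.4% to 20.6% (median 15.1%) of slow-poor libraries.

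Glycolysis, glycogen and lactate genes went mostly the other way, with 13 of 26 lower in slow-rich limbs, 3 higher and a median of -0.38. The subunits of lactate dehydrogenase had opposite signs. Ldhb, the subunit of oxidative tissue, held 214 to 613 CPM (median 436) in slow-rich and 11.0 to 266 CPM (median 79.5) in slow-poor limbs (1.99 ± 0.33, adjusted p = 0.00036), whereas Ldha, the subunit of glycolytic fibres, held 1289 to 2435 CPM (median 1888) in slow-rich and 1979 to 3387 CPM (median 2605) in slow-poor limbs, a difference of -0.63 ± 0.13 (adjusted p = 0.0022). Mitochondrial Gpd2 (-0.83 ± 0.15) and the glycogen phosphorylase Pygm (-0.62 ± 0.13) were lower, and the glycogen branching enzyme Gbe1 (0.80 ± 0.16) was higher. The third gene that was higher, Gys1, muscle glycogen synthase (0.41 ± 0.09), was named after its value was seen. Eno3 (-0.51 ± 0.12), Pgam2 (-0.36 ± 0.11) and Gpd1 belong to the fast cytosol list as well, and Pgam2 lost its call without any 1 of 19 animals.

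Load and stretch responsive genes were higher in 5 of 11 cases and lower in 0, with a median of 0.60. The called members were Fhl1 (1.63 ± 0.27), Hspb7 (median 1060 CPM in slow-rich and 299.8 CPM in slow-poor limbs, adjusted p = 0.00041), Nrap (0.60 ± 0.15), and Ankrd2 (1.88 ± 0.42) and Csrp3 (1.40 ± 0.43), both of which also belong to the slow list; Csrp3 lost its call without any 1 of 16 animals. Capillary endothelium markers were higher in 4 of 12 cases, namely Flt1 (0.53 ± 0.12), Cdh5 (0.34 ± 0.10), Eng (0.33 ± 0.10) and Tie1 (0.37 ± 0.11), whose calls were lost without any 1 of 2, 4 and 15 animals for Cdh5, Eng and Tie1; the list median was 0.31. With the range of animal numbers as a further covariate, Flt1 alone of the 12 was called (0.49 ± 0.13, adjusted p = 0.024). At the neuromuscular junction 1 of 12 genes was higher, Chrnd, a subunit of the acetylcholine receptor (1.31 ± 0.29), and 0 were lower; with the number range as a covariate, 2 were higher and 1 lower. Clock genes (0 of 14), smooth muscle (0 of 6), Schwann cell (0 of 8), tendon (0 of 8), macrophage (0 of 8), muscle stem cell (0 of 2) and red blood cell markers (0 of 5) had no call in either direction. Among 10 fibroblast markers, Smoc2 alone was called, at -0.54 ± 0.09 (lower in slow-rich limbs). With 8.4% of all genes called in the control limb, counts of 0 or 1 in lists this small are near the share over all genes.

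Outside these lists, the 8 largest rises among genes with an average of at least 2 on the log2 CPM scale were Pgk1-rs7, Rspo3, Lgi1, Bdh1, Myom3, Dusp18, Lrrc52 and Nlrc3. Rspo3, a secreted enhancer of Wnt signalling, held 2.53 to 16.1 CPM in slow-rich and 0.253 to 1.53 CPM in slow-poor limbs (3.05 ± 0.30, adjusted p = 4.6e-07). Lgi1, a secreted protein best known from synapses, held 9.84 to 26.4 CPM in slow-rich and 0.682 to 5.27 CPM in slow-poor limbs (2.52 ± 0.24, adjusted p = 3.8e-07). Bdh1, a ketone body dehydrogenase of mitochondria (2.49 ± 0.35), Myom3, an M-band protein of slow and IIA fibres (2.29 ± 0.31), and the phosphatase Dusp18 (2.29 ± 0.24) did not overlap between groups either, whereas Lrrc52 (2.29 ± 0.42) and Nlrc3 (2.16 ± 0.33) did.

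Pgk1-rs7 was a different case. It held 0 to 898 CPM with a median of 10.3 in slow-rich limbs and 0 to 31.2 CPM with a median of 9.52 in slow-poor limbs, so that a few slow-rich limbs gave its fold change of 3.90 ± 1.09. The call was lost without animal 11 or 47, and the estimate without 1 animal ran from 1.32 to 4.15. It resembles Pgk1 closely, which had the opposite sign (-1.05 ± 0.39, adjusted p = 0.093), and reads of the pair may not be separable.

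The 8 largest falls all overlapped between the groups. Scd1, a desaturase of fat synthesis, had medians of 108 CPM in slow-rich and 134 CPM in slow-poor limbs, and its log2 fold change of -2.64 ± 0.82 came with 1 slow-poor limb, of animal 13, at 9756 CPM. Without animal 13 it was -0.38 (adjusted p = 0.69), and Tkt, transketolase, moved with it, at -2.38 ± 0.69 with and -0.58 (adjusted p = 0.23) without that animal. Pde3b likewise had -1.64 ± 0.50 with and -0.86 (adjusted p = 0.12) without it. The metal and stress response genes Mt2 (-1.94 ± 0.61), Hbegf (-1.88 ± 0.48), Lcn2 (-1.71 ± 0.48) and Hmox1 (-1.69 ± 0.50) also overlapped widely, and leaving out 1 animal moved their estimates over -2.32 to -1.27, -2.02 to -1.14, -2.03 to -1.17 and -1.82 to -0.99, in that order, with the call lost in 17, 0, 2 and 10 of 24 cases. Kcnab1, a potassium channel subunit, differed by -1.62 ± 0.42, with medians of 3.95 CPM in slow-rich and 17.0 CPM in slow-poor limbs.

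Over all 46 control limbs, the 8 genes whose rank order was most like that of Myh7 were Tpm3, Tnnc1, Tnnt1, Tnni1, Atp2a2, Myl2, Myl3 and Myh7b, with Spearman coefficients of 0.97 to 0.92. The 4 least like it were Gpd1 (-0.76), Pgm2 (-0.74), Reep1 (-0.70) and Pygm (-0.70). These coefficients describe CPM values that share each library's total. In the immobilized limbs of the same 46 animals, against Myh7 of that limb, the first 8 had 0.77 to 0.93 and the last 4 -0.32 to -0.22.

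The limbs outside both groups were examined in the same way. Over the 22 middle control limbs, taken alone and added after the data were seen, 20 of 11696 genes tested followed log2 Myh7 (edgeR, adjusted p of at most 0.05). Of these, 16 were among the 896, in the same direction. There, 8 slow sarcomere genes were called, with slopes of 0.87 ± 0.13 for Tnnt1 and 1.02 ± 0.17 for Myl2 in log2 units per log2 unit of Myh7, and Atp2a2 had 1.05 ± 0.12. Of the 9 slow calcium and cytosol genes, 2 were called. Myh2 had 0.49 ± 0.24 (adjusted p = 0.59) and Myh4 -0.53 ± 0.12 (adjusted p = 0.089). No member of either fast list was called, but with 20 of 11696 genes called, this is near the share over all genes. Of the 896 genes, 85.9% kept their sign over the middle limbs, against 60.7% of all genes.

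The immobilized limbs of the same 24 animals asked whether an animal with a slow-rich control limb was slow-rich in its casted limb as well. Myh7 held 246 to 1332 CPM (median 544) in immobilized limbs of slow-rich animals and 7.18 to 4402 CPM (median 384) in those of slow-poor animals. The slow-rich animals lay within the range of the slow-poor animals. The log2 fold change was -0.31 ± 0.58 (edgeR, p = 0.60), with a 95% interval from -1.51 to 0.90, so neither a moderate rise nor a fall was detectable. The sign was not stable. The casted limbs of slow-poor animals 45 and 37 held 4402 and 2161 CPM, the highest of that group. Without animal 45 the value was 0.35, without animal 37 -0.07, and without both 0.64 ± 0.50 (-0.41 to 1.69). No other leave-one-out fit turned the sign, and without slow-poor animal 59, the lowest at 7.18 CPM, the value was -0.45. Leaving out both 45 and 37 was added after the data were seen, and dropping the highest limbs of 1 group by itself raises the value. With all 24 animals it was 0.85 in a limma fit of both limbs with the animal as replicate block (p = 0.185), and it was -1.22 in females alone and 0.25 in males alone. The difference of mean log2(CPM + 1) was 0.81 in the immobilized limbs and 4.02 in the control limbs that had been ranked.

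Over all genes, 0 of 10899 were called between the immobilized limbs of slow-rich and slow-poor animals by edgeR (0%; 480 had an unadjusted p of at most 0.05), and 10 by DESeq2, of which 2 were higher and 8 lower. The 8 were 4 adipocyte markers (Adipoq, Cidec, Fabp4 and Plin1), the smooth muscle marker Lmod1, and Pck1, Prkar2b and Mcam, and the 2 were Gm13341 and Pgk1-rs7; those outside the lists were named after their values were seen. Pgk1-rs7 had 3.93 ± 0.91 by edgeR (adjusted p = 0.42), beside 3.90 ± 1.09 in the control limb. Tnnt1 had -0.18 ± 0.50 (229 to 942 CPM in slow-rich and 37.4 to 2775 CPM in slow-poor animals), Myl2 -0.14 ± 0.43, Atp2a2 -0.26 ± 0.43, Myh2 -0.56 ± 0.30 and Myh4 0.35 ± 0.25, each with an adjusted p of 1. The medians of the slow sarcomere, the slow calcium and cytosol and the fast sarcomere lists were -0.22, -0.44 and 0.13. A setting added after the data were seen left out animals 37 and 45, the slow-poor animals highest in Myh7 of the immobilized limb. Higher values of slow genes follow partly from that choice. The sign turned for Tnnt1 (0.78 ± 0.40), Myl2 (0.52 ± 0.39), Atp2a2 (0.65 ± 0.32) and the slow sarcomere median (0.51). Myh2 (-0.44 ± 0.32), the slow calcium and cytosol median (-0.25) and the fast sarcomere median (0.03) kept theirs. Of the 9 slow calcium and cytosol genes, which include Atp2a2, 2 were positive. Again 0 genes were called. Of the 884 genes called in the control limb and tested here, 36.5% had the same sign, against 47.8% of all genes, and 4.19% had an unadjusted p of at most 0.05, against 4.42% of all genes. Both comparisons share the animals and the ranking but no library. Without animals 15 and 16, 0 genes were called and Myh7 had -0.22.

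**Figure D4:**
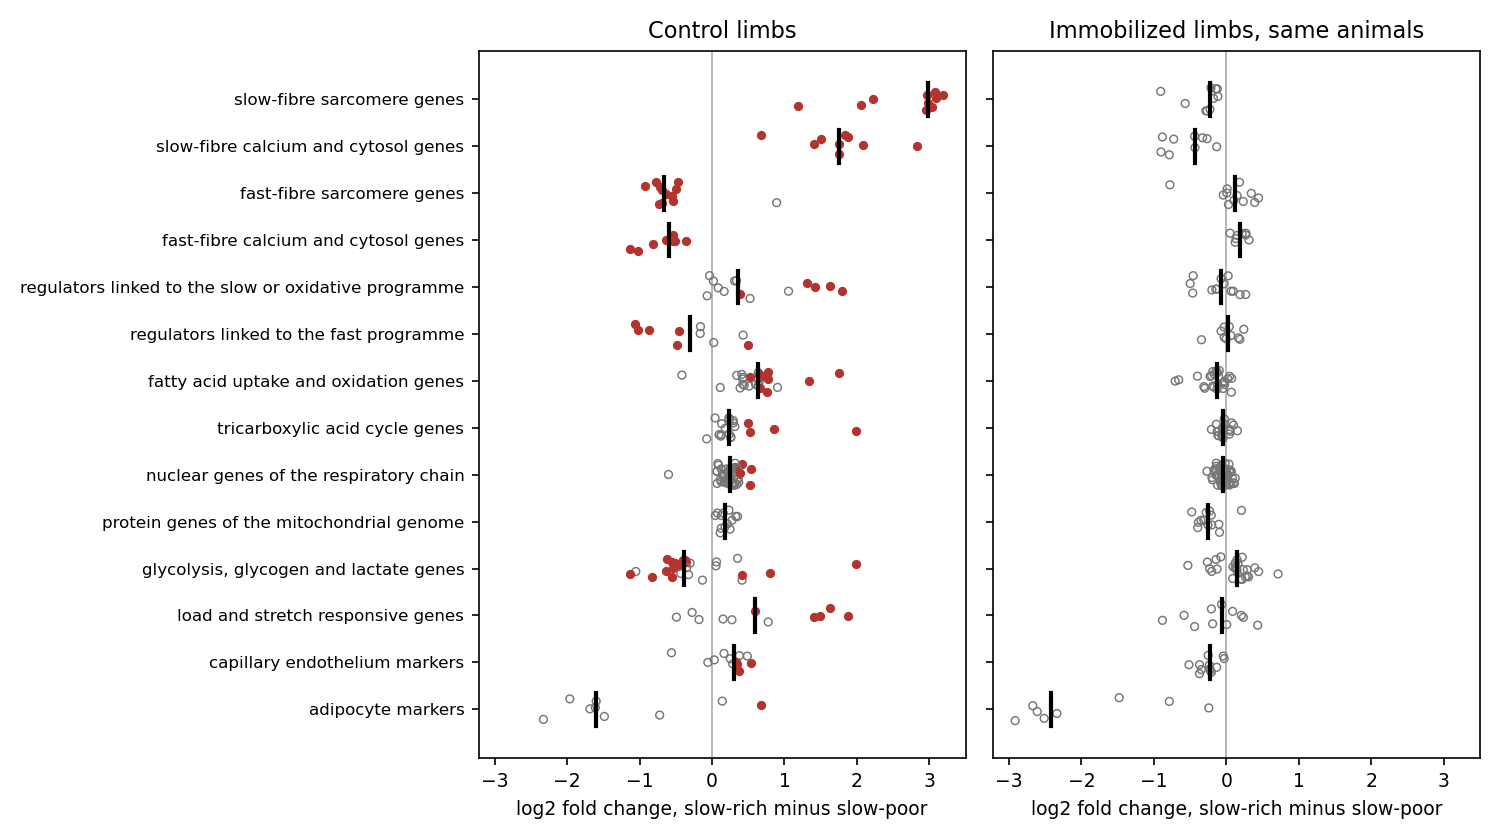
Log2 fold change, slow-rich minus slow-poor animals, of each gene in 14 lists, in control limbs (left) and in immobilized limbs of the same animals (right); filled points had an adjusted p of at most 0.05 and bars mark list medians. The slow sarcomere median was 2.98 in control limbs and -0.22 in immobilized limbs, and no point was filled in the immobilized limbs.

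Over the 46 animals, Myh7 of the control limb and of the immobilized limb gave a Pearson r of 0.22 on log2(CPM + 1) (permutation test with 100000 resamples, two-sided p = 0.139, adjusted 0.209) and a Spearman rho of 0.18 (p = 0.221, adjusted 0.60), in a family of 6 settings. Without male 12 and female 47, the animals farthest from the median, r was 0.14. In the 21 females r was 0.44 and rho 0.04, and without females 47 and 27 r was -0.42, so the value in females rested on those animals; in the 25 males r was 0.10 and rho 0.15. Myh7 was higher in the control than in the immobilized limb in 12 of 12 slow-rich animals and in 3 of 12 slow-poor animals, an order that ranking on the control limb partly fixes.

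A further comparison, added after the data were seen, ranked the immobilized limbs by their own Myh7. The 12 highest against the 12 lowest of the 46 immobilized limbs gave 26 called genes of 10863 (0.239%), 24 higher and 2 lower. Of these 26, 20 were among the 896 genes of the control limb, with the same direction, which is 76.9% of the smaller and 2.23% of the larger list. Tnnt1 (2.79 ± 0.41, adjusted p = 0.0023), Atp2a2 (2.39 ± 0.35), Myl2 (2.30 ± 0.37), Tnni1 (2.57 ± 0.47), Tnnc1 (2.54 ± 0.50), Tpm3 (2.48 ± 0.47), Myh6 (2.90 ± 0.53) and Myh2 (1.28 ± 0.28) were called, whereas Myh4 (-0.11 ± 0.29), Pvalb (-0.51 ± 0.22) and Gpd1 (-0.30 ± 0.22) were not. Of the 10 slow sarcomere genes 8 were called, and of the 9 slow calcium and cytosol genes Atp2a2 alone. The median of the latter list was 0.74, and that of the fatty acid list was 0.05. Group membership was only partly kept. Of the 12 slow-rich animals, 2 were among the 12 highest immobilized limbs, 1 among the 12 lowest and 9 in neither. Of the 12 slow-poor animals, 4 were among the highest, 6 among the lowest and 2 in neither.

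**Figure D5:**
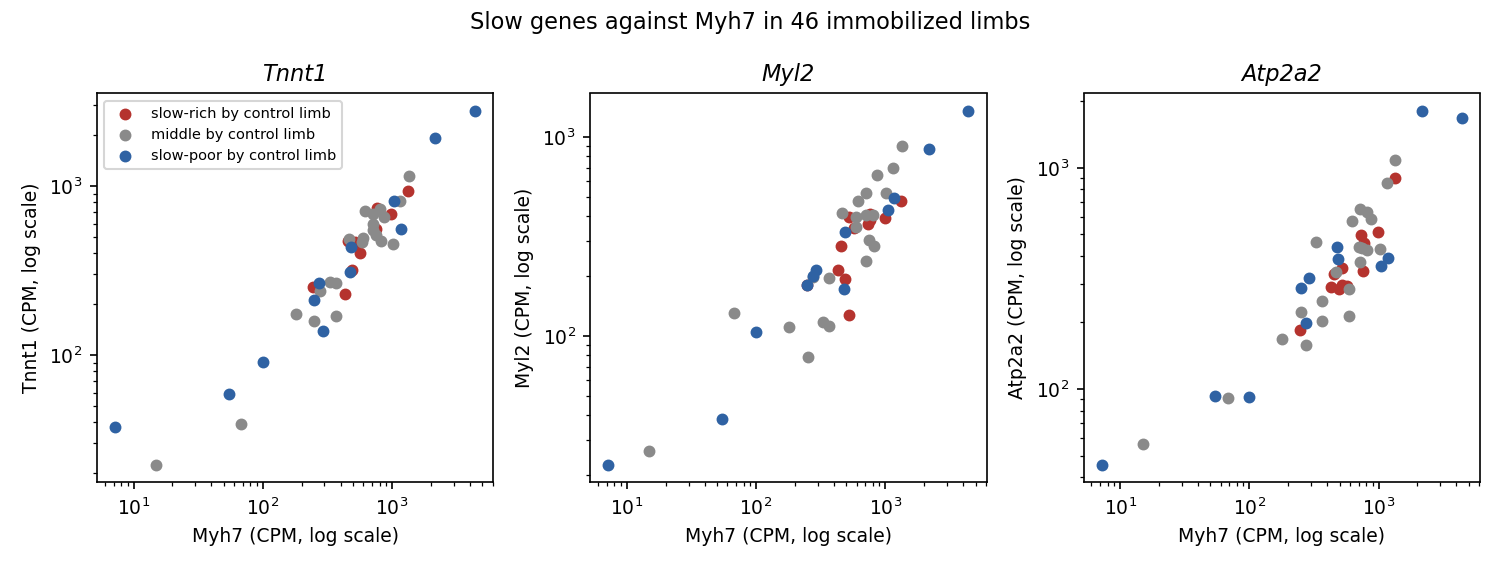
Tnnt1, Myl2 and Atp2a2 against Myh7 (all in CPM, log scales) in 46 immobilized limbs, coloured by the Myh7 group of the animal's control limb. Each gene rose along Myh7 within the immobilized limbs (Spearman 0.93, 0.89 and 0.86), while slow-rich animals lay inside the range of slow-poor animals.

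Markers of fat and smooth muscle were lower in the immobilized limbs of slow-rich animals by DESeq2 and in unadjusted p-values, while 0 passed adjustment by edgeR. The 6 adipocyte-defining markers summed to 8.24 to 513 CPM (median 41.2) in slow-rich and 13.4 to 3370 CPM (median 140) in slow-poor animals. Plin1, the lipid droplet coat protein, had -2.51 ± 0.58 and Cidec -2.67 ± 0.60, each with an edgeR adjusted p of 0.42, and 7 of the 8 list members tested had an unadjusted p of at most 0.05. All 6 smooth muscle markers did too, with Lmod1 at -1.12 ± 0.27 (edgeR adjusted p = 0.48). DESeq2 called Adipoq, Cidec, Fabp4, Plin1 and Lmod1 of these lists, with adjusted p of 0.026 to 0.046, and a slope on the Myh7 of the control limb over 46 animals called Cnn1, a smooth muscle calponin, and Actg2, a smooth muscle actin (adjusted p = 0.046 each). Their part in the other values of the immobilized limb was not tested. The slow-list genes Mb (-0.73 ± 0.25) and Car3 (-0.79 ± 0.27) were lower with unadjusted p of 0.0072 each, in the direction opposite to the control limb, and neither passed adjustment.

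Females and males were compared by the interaction of sex and slow group. In the control limb 0 of 10668 genes differed between the sexes in their slow-rich against slow-poor change (edgeR; 333 had an unadjusted p of at most 0.05, and DESeq2 called 0), and in the immobilized limb 0 of 10899 (449, and DESeq2 called 1). The slow sarcomere list had 6 of 10 genes called in females alone, with a median of 3.25, and 9 of 10 in males alone, with a median of 2.78. The slow calcium and cytosol list had 1 of 9 called in females and 6 of 9 in males. Over all genes, 35 of 10903 were called in females alone and 294 of 10855 in males alone. The fast sarcomere list had 0 of 12 lower in females and 4 of 12 in males, the fast calcium list 0 of 8 in females and 3 of 8 in males, and the glycolysis list 0 of 26 in females and 8 of 26 in males. With 5 and 4 females and 7 and 8 males in the slow-rich and slow-poor groups, these counts are not a test of a difference between the sexes.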

How the data were processed

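Stranded total RNA libraries of gastrocnemius, depleted of ribosomal RNA per the labels, were analysed. The authors deposited raw read counts for 32544 gene symbols, in separate tables of females and males. No source used here names the aligner, the counting tool or the genome build. The members and the gene lists were chosen with earlier results of these data known. CPM was computed from column sums for ranking and display. Genes passing edgeR's expression filter were fitted by quasi-likelihood with TMM library sizes (edgeR 4.0.16, R 4.3.3), and p-values were adjusted by Benjamini-Hochberg over all genes tested. The fit was run on simulated counts with the same dispersion for every gene, which does not test it on single limbs with extreme values. The SE is the log2 fold change divided by the root of F. Each animal gave 1 library per limb, so p-values measure spread between animals. Reads carried no molecular identifiers, and counting error was not separated from it. Named genes were all members of the fibre-type lists, up to 5 members with the smallest p of other lists, and the called genes outside the lists with the 8 greatest rises and 8 greatest falls and an average log2 CPM of at least 2, leaving out predicted and sex-linked genes. A few list members are not reported here. DESeq2 1.42.0 and limma 3.58.1 served as alternatives. The animal number of the labels pairs the limbs. In the limma fit the consensus correlation within animals was 0.20, over the genes fitted and with group, limb and sex in the model. Totals of the 46 animals' libraries ran from 1716485 to 9995936 counts, so low genes were measured with less precision.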

Additional observations from a re-analysis of the deposited data

How the results depend on the processing

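The count of genes called in the control limb stayed within 1.5 times of 896 under DESeq2, other size factors, both filters, 16 limbs per group, other ranking scales, a slope over 46 limbs, and covariates for number range or depth. It was 474 (264 higher, 210 lower) with 8 limbs per group, 501 (244 and 257) with all 56 animals ranked, 35 (31 and 4) in females alone and 294 (188 and 106) in males alone. With both limbs in 1 limma voom fit and the animal as replicate block, 672 were called, 382 higher and 290 lower. Immobilized limbs ranked by their own Myh7 gave 26 (24 and 2), and the 22 middle limbs 20 (17 and 3). Leaving out 1 animal gave 656 (without 47) to 1203 (without 13), with 349 to 669 higher and 298 to 534 lower. In the immobilized limbs of the ranked animals DESeq2 called 10 (2 and 8) and a slope over 46 limbs 3 (all lower), DESeq2's sex interaction 1, and every leave-one-out fit 0. Myh7 there was 0.85 in the limma voom fit, against -0.31 by edgeR. The difference of mean log2(CPM + 1), which uses no replicate block, was 0.81. Of the 96 named genes called, 81 kept the call in all 24 leave-one-out fits. Signs reversed for Pgam2 with all 56 animals (0.064); for Pln (-0.039), Sln (-0.56), Mybpc2 (0.080), Myod1 (0.12), Ndufb3 (-0.061), Atp5h (-0.12), Lpl (-0.30), Eng (-0.075), Tie1 (-0.020), Smoc2 (0.025) and Dusp18 (-0.030) in limbs ranked by their own immobilized Myh7; and for Myod1 (0.092) and Smoc2 (0.17) over the middle limbs. The causes were not tested.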
